A study of Mus musculus with 7 samples.

Results

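The 10 genes described here make melanin or build the melanosome, the organelle in which melanin is made and kept. They were taken by gene symbol, for their known roles, as 10 of the 54532 gene rows in the deposited table, and each symbol had 1 gene ID. The counts came from 7 poly-A selected RNA libraries of mouse retina taken on day 28. The 4 Ang II libraries came from mice infused with angiotensin II (Ang II, a peptide hormone that raises blood pressure), and the 3 saline libraries from mice infused with saline. The title and design text of the series name the mice ApoE-/-, but the genotype field of every sample reads WT. The sources used here give no age, sex, strain, dose or number of animals per library. P-values therefore measure only the spread between these libraries, which may be technical.

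Melanin is made from tyrosine in a chain that tyrosinase starts and related enzymes finish, on protein fibrils inside the melanosome. Transporters in the melanosome membrane set the ions and pH that tyrosinase needs, and the transcription factor MITF switches on many of the genes involved. In the eye these genes belong to the retinal pigment epithelium, a single cell layer against the photoreceptors, to the pigmented epithelia of the ciliary body and iris, and to melanocytes of the choroid. The neural retina itself makes no melanin. A dissected retina can carry some of the neighbouring layers, and in bulk libraries more cells of a type and more RNA per cell cannot be told apart.

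The libraries held 14655431 to 17563493 counts. The 10 rod markers were detected in every library, with a summed level of 52390 to 64908 CPM in Ang II and 66090 to 70482 CPM in saline (CPM is the read count relative to library size, scaled by TMM, a correction for library composition). They lay opposite to most of the genes described here: the log2 fold changes of all 10 were negative, and their median was -0.21. With edgeR 0 of them passed, 7 had an unadjusted p under 0.05 on the lower side (1.72% of all tested genes did), and for 2 all Ang II libraries lay below all saline libraries (2.73%). DESeq2 called 0 and limma-voom with quality weights 1, the phosphodiesterase gene Pde6g. The part of the rod level in the results that follow was not tested. Apoe, the gene given as deleted, had 253 to 406 counts in Ang II and 150 to 304 in saline. The summed level of 11 pigment epithelium markers, here called the reference list (Rpe65, Lrat, Rdh5, Rgr, Rrh, Best1, Stra6, Ttr, Ermn, Slc16a8 and Slc6a20a), ran from 1190 to 2095 CPM in Ang II. In saline it was 204, 250 and 1065 CPM in replicates 1 to 3, so saline replicate 3 stood near the Ang II libraries and far from the other saline libraries. Ang II replicate 2 stood apart by Optc, which encodes opticin, a protein secreted by the ciliary epithelium. It had 288 Optc counts there and 10 to 35 in the other 6 libraries.

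No member passed the test of Ang II against saline, while most of them were at a higher level in the Ang II libraries. In edgeR's quasi-likelihood test with Benjamini-Hochberg adjustment over 17078 genes, 0 of 10 members had an adjusted p under 0.05 (background 0% of all tested genes), and the smallest adjusted p among them was 0.312, for Tyr. The log2 fold change was above 0 for 9 of 10 members, against 48.9% of all tested genes, and the median was 0.62 against -0.0048 over all tested genes. Without saline replicate 3 the members' median was 1.13. An unadjusted p under 0.05 on the higher side was found for 5 members (Tyr, Mitf, Gpr143, Slc24a5 and Oca2), against 2.90% of all tested genes. All 4 Ang II libraries lay above all 3 saline libraries for 2 members, Tyr and Mitf, against 3.18% of all tested genes. Of the 10, Oca2, Slc45a2 and Gpr143 reached the filter on low counts through the Ang II libraries, where they were higher, so these counts give no support of their own.

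**Figure D1:**
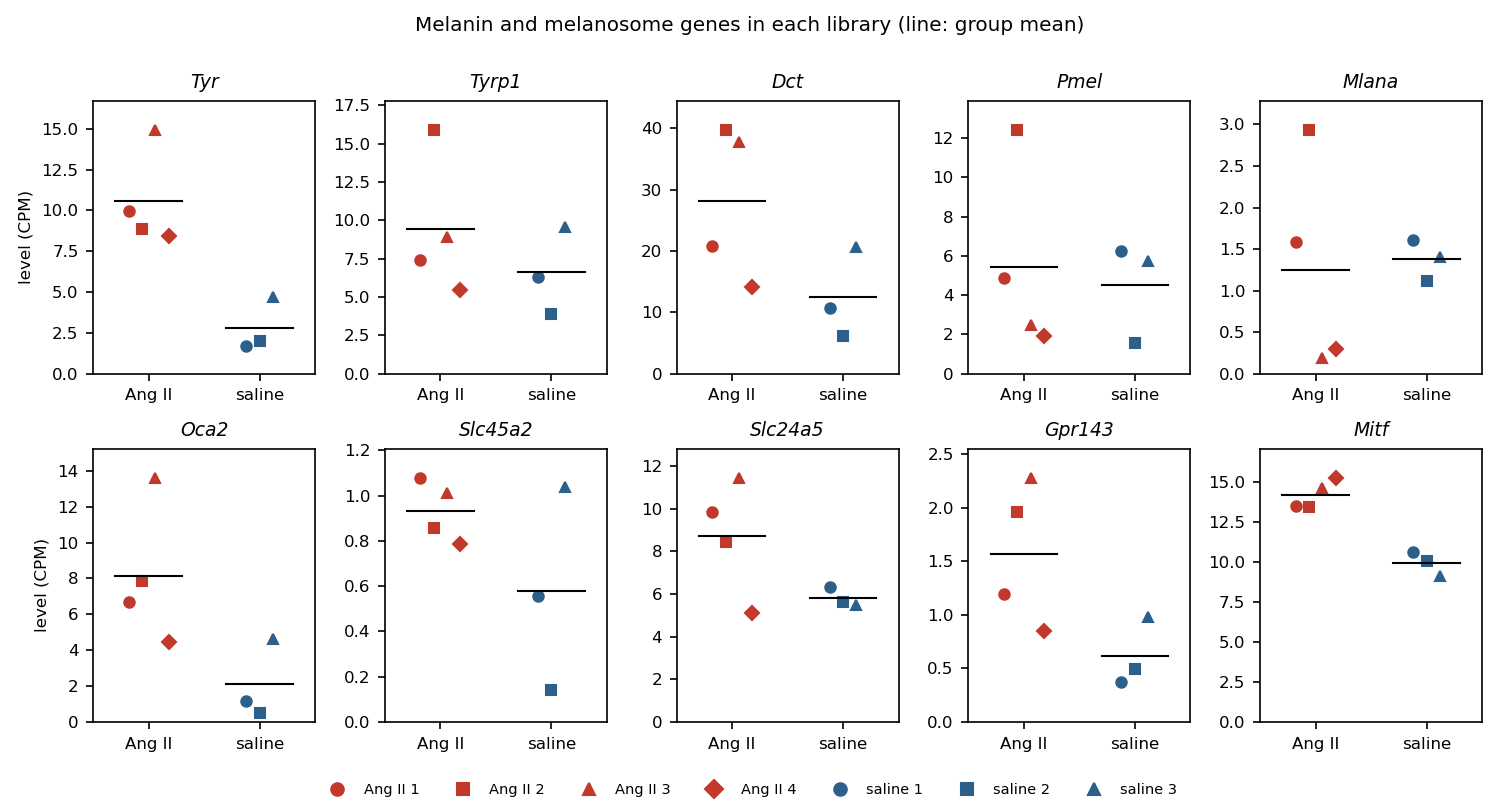
Level of each gene in CPM (vertical axes, linear, from 0) in the 4 Ang II libraries (red) and the 3 saline libraries (blue), with a line at each group's mean. Tyr and Mitf are the 2 genes whose groups do not overlap; Pmel and Mlana spread widely within Ang II, with replicate 2 highest.

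The 3 enzymes differed in how far they followed the treatment groups. Tyr (ENSMUSG00000004651, chromosome 7, 87424771 to 87493512, mm10) encodes tyrosinase, the copper enzyme that starts melanin synthesis. It had 176, 145, 236 and 140 counts in Ang II replicates 1 to 4 and 27, 29 and 77 counts in saline replicates 1 to 3. The lowest Ang II library was thus above the highest saline library, and saline replicate 3 stood between saline replicates 1 and 2 and the Ang II group. Mean levels with SD were 10.6 ± 2.98 CPM (n = 4) and 2.80 ± 1.66 CPM (n = 3). The log2 fold change was 1.90, with an SE of 0.34, and the edgeR adjusted p was 0.312; values after ± are SDs for levels and SEs for fold changes throughout. Dct (ENSMUSG00000022129, chromosome 14, 118012790 to 118052244) encodes dopachrome tautomerase, which acts after tyrosinase. It had 366, 650, 597 and 235 counts in Ang II and 174, 87 and 338 counts in saline. The groups overlapped, because saline replicate 3 lay above Ang II replicate 4 and almost level with Ang II replicate 1. The level was 28.1 ± 12.6 CPM against 12.5 ± 7.43 CPM, a log2 fold change of 1.16 ± 0.58 (edgeR adjusted p = 0.982). Tyrp1 (ENSMUSG00000005994, chromosome 4, 80834123 to 80851719) encodes the tyrosinase-related protein that oxidises a later indole intermediate. Its counts were 131, 260, 141 and 91 in Ang II and 102, 56 and 157 in saline. Ang II replicate 2 was the highest and saline replicate 3 the next, so the groups were mixed. The level was 9.43 ± 4.53 CPM against 6.61 ± 2.85 CPM, a log2 fold change of 0.51 ± 0.40 that was 0.13 without Ang II replicate 2.

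The sequence before the start site of the enzyme genes is shown because all 3 windows hold CATGTG, the core of the M-box element of pigment cell promoters, while the genes' levels followed different libraries. Windows run from 250 bases before to 50 after a RefSeq start site (GRCm38.p6, the same assembly as mm10), 5′ to 3′ on the gene's strand, and 6 of 10 members had a window (Tyr, Tyrp1, Dct, Oca2, Slc24a5 and Mitf). The longest run of letters around CATGTG that the Tyr and Tyrp1 windows share is AGTCATGTGCT, of 11 bases. Capitals mark that run, or else TCATGTG, read on either strand (CACATGA is its reverse complement).
Tyr, chr7:87493463-87493762, minus strand: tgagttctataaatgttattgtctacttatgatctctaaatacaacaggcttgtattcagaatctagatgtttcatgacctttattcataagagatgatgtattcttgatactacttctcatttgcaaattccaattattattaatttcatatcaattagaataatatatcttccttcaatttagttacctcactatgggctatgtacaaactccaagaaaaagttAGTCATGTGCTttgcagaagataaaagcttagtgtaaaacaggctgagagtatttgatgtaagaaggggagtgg
Tyrp1, chr4:80833963-80834262, plus strand: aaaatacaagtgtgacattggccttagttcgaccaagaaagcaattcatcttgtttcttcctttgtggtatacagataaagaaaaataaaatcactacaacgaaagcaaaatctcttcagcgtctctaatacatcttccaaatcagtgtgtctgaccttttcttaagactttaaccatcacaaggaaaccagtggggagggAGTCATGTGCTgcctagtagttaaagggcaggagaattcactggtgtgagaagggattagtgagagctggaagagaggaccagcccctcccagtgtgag
Dct, chr14:118052197-118052496, minus strand: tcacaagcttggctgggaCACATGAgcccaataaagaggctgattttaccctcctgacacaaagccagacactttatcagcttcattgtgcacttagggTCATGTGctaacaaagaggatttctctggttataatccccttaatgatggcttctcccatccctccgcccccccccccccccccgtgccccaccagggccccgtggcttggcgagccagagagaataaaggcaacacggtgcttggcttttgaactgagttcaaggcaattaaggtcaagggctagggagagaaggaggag
Slc24a5, chr2:125067877-125068176, plus strand: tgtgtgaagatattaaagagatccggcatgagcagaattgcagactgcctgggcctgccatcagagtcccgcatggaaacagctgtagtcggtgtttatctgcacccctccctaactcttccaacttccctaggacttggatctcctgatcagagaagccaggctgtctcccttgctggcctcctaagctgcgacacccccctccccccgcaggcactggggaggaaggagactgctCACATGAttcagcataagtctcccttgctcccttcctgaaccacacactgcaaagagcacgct
The run AGTCATGTGCT, which contains TCATGTG and CATGTG, was read off the Tyr and Tyrp1 windows, so its presence in both is not a finding, and its share of 0.0213% of 32817 windows of 300 bases across the genome is given as a description. TCATGTG was in the windows of 4 members (Tyr, Tyrp1, Dct with 2 matches, and Slc24a5), against 3.78% of all windows. CATGTG was in 5 of the 6, with Oca2 added, against 14.2%, and the palindrome CACGTG was in 0 of the 6, against 7.15%. Tyr and Tyrp1, which share the longest match, had log2 fold changes of 1.90 and 0.51. A match describes letters in these windows and shows no binding.

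The 2 structural genes did not separate the groups. Pmel (ENSMUSG00000025359, chromosome 10, 128704195 to 128720238) encodes the protein whose fibrils form the scaffold on which melanin is laid down. It had 86, 203, 39 and 32 counts in Ang II and 101, 22 and 94 counts in saline. The highest level was in Ang II replicate 2, and Ang II replicates 1, 3 and 4 lay below saline replicates 1 and 3. The level was 5.42 ± 4.83 CPM against 4.51 ± 2.59 CPM, a log2 fold change of 0.26 ± 0.81 (edgeR adjusted p = 0.990), which was -0.55 without Ang II replicate 2 and -0.15 without saline replicate 2. In the GENCODE M21 annotation, exons of Pmel share 105 bases with Dgka and 34 bases with Cdk2 on the other strand. Mlana (ENSMUSG00000024806, chromosome 19, 29697921 to 29708448) encodes a small melanosome membrane protein that helps PMEL mature. It had 28, 48, 3 and 5 counts in Ang II and 26, 16 and 23 counts in saline. Ang II replicates 3 and 4 were the lowest of all 7 libraries and Ang II replicate 2 the highest. The level was 1.25 ± 1.29 CPM against 1.38 ± 0.246 CPM, a log2 fold change of -0.14 ± 0.73 (edgeR adjusted p = 0.995). Mlana was the 1 member with a value below 0, and its value was 0.22 without Ang II replicate 3 and 0.19 without Ang II replicate 4. It reached the filter on low counts in 2 Ang II libraries and 3 saline libraries, so its direction gives no support of its own.

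Among the 3 transporters Oca2 had the largest difference. Oca2 (ENSMUSG00000030450, chromosome 7, 56239760 to 56536518) encodes a melanosome membrane protein that supports chloride flow and a pH at which tyrosinase works. It had 118, 129, 215 and 74 counts in Ang II and 19, 7 and 76 counts in saline. Saline replicates 1 and 2 were far below the other 5 libraries, and saline replicate 3 lay just above Ang II replicate 4. The level was 8.16 ± 3.89 CPM against 2.10 ± 2.23 CPM, a log2 fold change of 1.93 ± 0.76 (edgeR adjusted p = 0.982). Without saline replicate 3 the log2 fold change was 3.26, with an edgeR adjusted p of 0.0168. Oca2 reached the filter on low counts through the Ang II libraries, so this p gives no support of its own. Slc24a5 (ENSMUSG00000035183, chromosome 2, 125068124 to 125088677) encodes a potassium-dependent sodium/calcium exchanger needed for pigmentation. It had 174, 138, 181 and 85 counts in Ang II and 102, 80 and 90 counts in saline. Ang II replicates 1 to 3 were above all saline libraries, whereas Ang II replicate 4 was the lowest of all 7 by level (5.13 CPM, against 5.50 CPM or more in the others), though not by count. The level was 8.72 ± 2.69 CPM against 5.81 ± 0.444 CPM, a log2 fold change of 0.58 ± 0.24 (edgeR adjusted p = 0.982). In GENCODE M21, exons of Slc24a5 share 921 bases with Myef2 on the other strand, and reads from that stretch cannot be told apart in an unstranded library. Myef2 itself had 1158 to 1400 counts in Ang II and 1080 to 1261 in saline. Slc45a2 (ENSMUSG00000022243, chromosome 15, 11000721 to 11029233), a transporter gene that keeps melanosome pH, was the scarcest member, with 19, 14, 16 and 13 counts in Ang II and 9, 2 and 17 counts in saline. Its log2 fold change of 0.66 ± 0.53 (edgeR adjusted p = 0.982) was 0.22 without saline replicate 2 and 1.38 without saline replicate 3.

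Gpr143 (ENSMUSG00000025333, chromosome X, 152781921 to 152808646) encodes the receptor on melanosomes that limits their size and is mutated in ocular albinism. It had 21, 32, 36 and 14 counts in Ang II and 6, 7 and 16 counts in saline. Saline replicates 1 and 2 were the lowest, and saline replicate 3 was close to Ang II replicates 1 and 4. The level was 1.57 ± 0.663 CPM against 0.613 ± 0.321 CPM, a log2 fold change of 1.33 ± 0.48 (edgeR adjusted p = 0.982).

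Mitf (ENSMUSG00000035158, chromosome 6, 97807052 to 98021349), the transcription factor gene of pigment cells, had 238, 220, 232 and 253 counts in Ang II and 172, 144 and 150 counts in saline. The groups did not overlap, and saline replicate 3 was the lowest library by level, unlike in Tyr, Oca2 and Dct. The level was 14.2 ± 0.899 CPM against 9.97 ± 0.750 CPM, a log2 fold change of 0.51 ± 0.14 (edgeR adjusted p = 0.875). Relative to its mean, Mitf had the smallest spread within each group among the members, and its log2 fold change stayed between 0.46 and 0.56 when each library was left out in turn. The 3 RefSeq start sites of Mitf lie at 3 places along the gene, and counts per gene do not separate the transcripts.

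**Figure D2:**
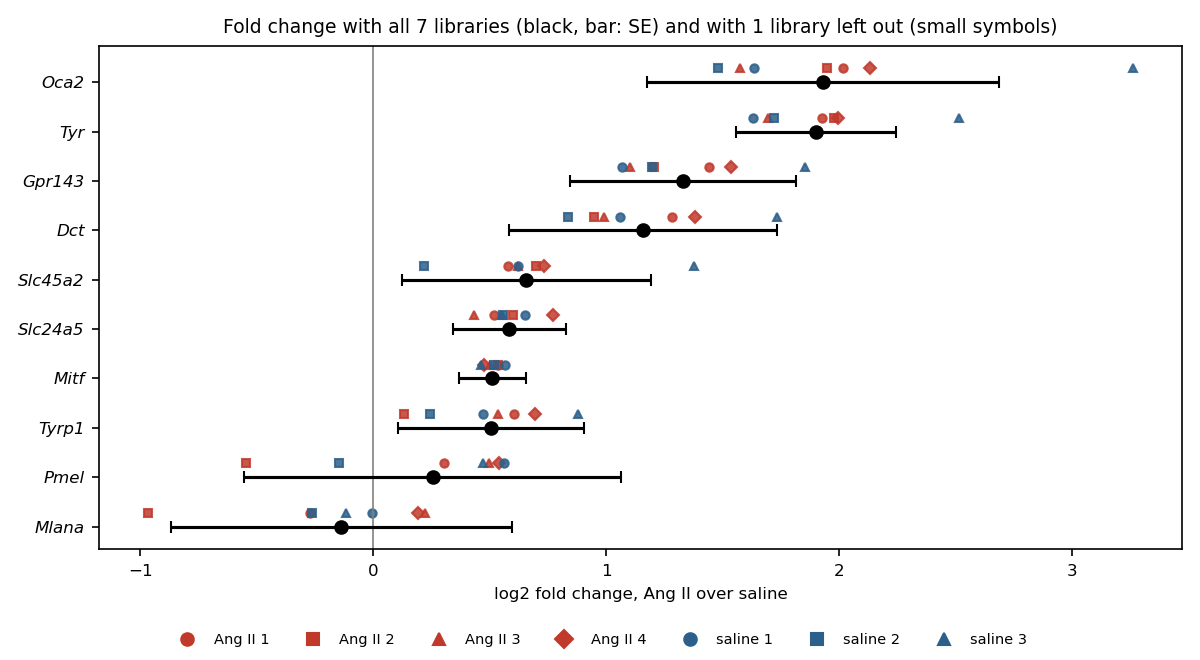
Log2 fold change of Ang II over saline for each gene (horizontal axis), with all 7 libraries (black point, bar of 1 SE) and with the library shown by the small symbol left out. Leaving out saline replicate 3 (blue triangle) moves Oca2 from 1.93 to 3.26 and Tyr from 1.90 to 2.51, and leaving out Ang II replicate 2 (red square) moves Pmel and Mlana to -0.55 and -0.97.

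The counts of members depended on single libraries. Without saline replicate 3, edgeR called Tyr (log2 fold change 2.51, adjusted p = 0.000200) and Oca2, 2 of 10 members against 0.587% of all tested genes on the higher side. The groups then did not overlap for 6 members (Tyr, Dct, Oca2, Slc45a2, Gpr143 and Mitf), against 8.48% of all tested genes. Without Ang II replicate 4 they did not overlap for 6 members either (Tyr, Dct, Oca2, Slc24a5, Gpr143 and Mitf), against 6.87%. As above, Oca2, Slc45a2 and Gpr143 reached the filter on low counts through the Ang II libraries. Counts that hold them, and the calls of Oca2, give no support of their own. An unadjusted p under 0.05 on the higher side was found for 3 members without Ang II replicate 1, for 2 without Ang II replicate 3, for 3 without saline replicate 1 and for 3 without saline replicate 2 (2.46%, 2.07%, 2.48% and 3.36% of all tested genes). It was found for 4 members without Ang II replicate 2 (2.05%), 6 without Ang II replicate 4 (4%) and 6 without saline replicate 3 (4.26%). With all libraries the count was 5, so leaving out a library lowered it in some cases and raised it in others. DESeq2 called 1 member, Tyr (adjusted p = 2.41e-05; 0.182% of all tested genes on the higher side), and limma-voom with quality weights called Tyr and Oca2 (0.732%). Over 17 alternatives the adjusted p of Tyr ran from 1.19e-11, by edgeR with no filter on low counts, to 0.996.

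Per kilobase of gene length, which allows levels to be set between genes, all members were scarce in these retinas. In Ang II, Dct led with 4.77 ± 2.14 CPM per kilobase (SD, n = 4), followed by Slc24a5, Tyrp1, Pmel, Mitf, Oca2, Mlana and Tyr, and then by Gpr143 at 0.785 ± 0.332 and Slc45a2 at 0.313 ± 0.0454. The mean ± SD ranges overlapped in 8 of 9 neighbouring pairs, and Gpr143 and Slc45a2 were the exception. In saline the order was Slc24a5 (2.49 ± 0.191, n = 3), Tyrp1, Mlana, Dct, Pmel, Mitf, Oca2, Tyr, Gpr143 and Slc45a2 (0.194 ± 0.151). The ranges again overlapped in 8 of 9 neighbouring pairs, and the gap lay between Mitf (1.61 ± 0.121) and Oca2 (0.531 ± 0.562). The 921 exon bases that Slc24a5 shares with Myef2 may affect its place in both orders, which was not tested. Tyr was at 1.48 ± 0.420 CPM per kilobase in Ang II and 0.394 ± 0.233 in saline. The retinoid isomerase gene Rpe65, a pigment epithelium marker, was at 78.9 ± 20.7 and 23.7 ± 20.7 CPM per kilobase in the same libraries.

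The reference list lay in the same direction as the members. All 11 reference genes had a log2 fold change above 0 (48.9% of all tested genes did), with a median of 1.63. The list was chosen with earlier results of these data known, so this shared direction gives no support of its own. Of the 11, Best1 also reached the filter on low counts in 4 Ang II libraries and 1 saline library. With edgeR 0 passed and 5 had an unadjusted p under 0.05 on the higher side (2.90% of all tested genes), while DESeq2 called 0 (0.182%) and limma-voom with quality weights 9 (0.732%). The log2 fold changes were 2.16 for Slc6a20a, 1.87 for Rdh5, 1.79 for Lrat, 1.73 for Rpe65, 1.64 for Rgr, 1.63 for Ttr, 1.55 for Ermn and Slc16a8, 1.42 for Stra6, 0.50 for Best1 and 0.38 for Rrh. Rpe65 was at 152, 147, 204 and 107 CPM in Ang II replicates 1 to 4 and 19.8, 25.9 and 92.0 CPM in saline replicates 1 to 3. Saline replicate 3 had 4.54 times (median of the 11 genes) the mean level of saline replicates 1 and 2, within a range of 1.26 (Rrh) to 6.60 (Lrat). Among the members the same ratio was 5.57 for Oca2, 2.98 for Slc45a2, 2.54 for Tyr, 2.45 for Dct and 2.27 for Gpr143. It was 1.87 for Tyrp1, 1.47 for Pmel, 1.03 for Mlana, 0.922 for Slc24a5 and 0.884 for Mitf. The part of the pigment epithelium content in the differences between groups was not tested.

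Each member was then set against the reference in the same library, as its log2 CPM (with a prior count of 2) minus the mean log2 CPM of the 11 genes. The reference mean itself was 1.80 higher in Ang II on this scale. By an exact permutation test (two-sided, all 35 ways to split the libraries 4 against 3), 0 of 10 members differed between the groups after Benjamini-Hochberg adjustment. The smallest p that 35 splits allow is 0.0286, so at least 6 members would have to reach it for any to pass. Tyr lay at -2.35 ± 0.112 in the 4 Ang II libraries and -2.52 ± 0.405 in the 3 saline libraries, a difference of 0.17 (exact permutation p = 0.600). That difference was -0.058 without saline replicate 3, 0.32 without saline replicate 2 and 0.26 without saline replicate 1. Oca2 lay 0.50 higher relative to the reference in Ang II (exact permutation p = 0.286), and 0.12 higher without saline replicate 2. The other 8 members had negative differences, from -0.59 for Dct to -2.50 for Mlana. They stayed below 0 when each library was left out, but their size rested on single saline libraries for 6 of them. Without saline replicate 1 the difference was -0.24 for Dct, -0.98 for Pmel (-1.69 with all libraries), -0.50 for Slc45a2 and -0.85 for Slc24a5 (-1.28 with all libraries). Without saline replicate 3 it was -1.98 for Slc24a5, -2.01 for Mitf and -0.93 for Gpr143 (-0.60 with all libraries, and -0.40 without saline replicate 2). Slc45a2 was the 1 member whose groups did not overlap on this scale (-5.66 ± 0.240 against -4.69 ± 0.821, exact permutation p = 0.0286, adjusted p = 0.245). Slc45a2 had 2 counts in saline replicate 2, so its value there, and with it the separation, depends on the prior count. With a prior count of 0.5 its difference was -0.81. Mitf differed by -1.29 (exact permutation p = 0.171), and its value in saline replicate 3, -2.04, was among the Ang II values, while saline replicates 1 and 2 were at 0.24 and 0.0061.

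**Figure D3:**
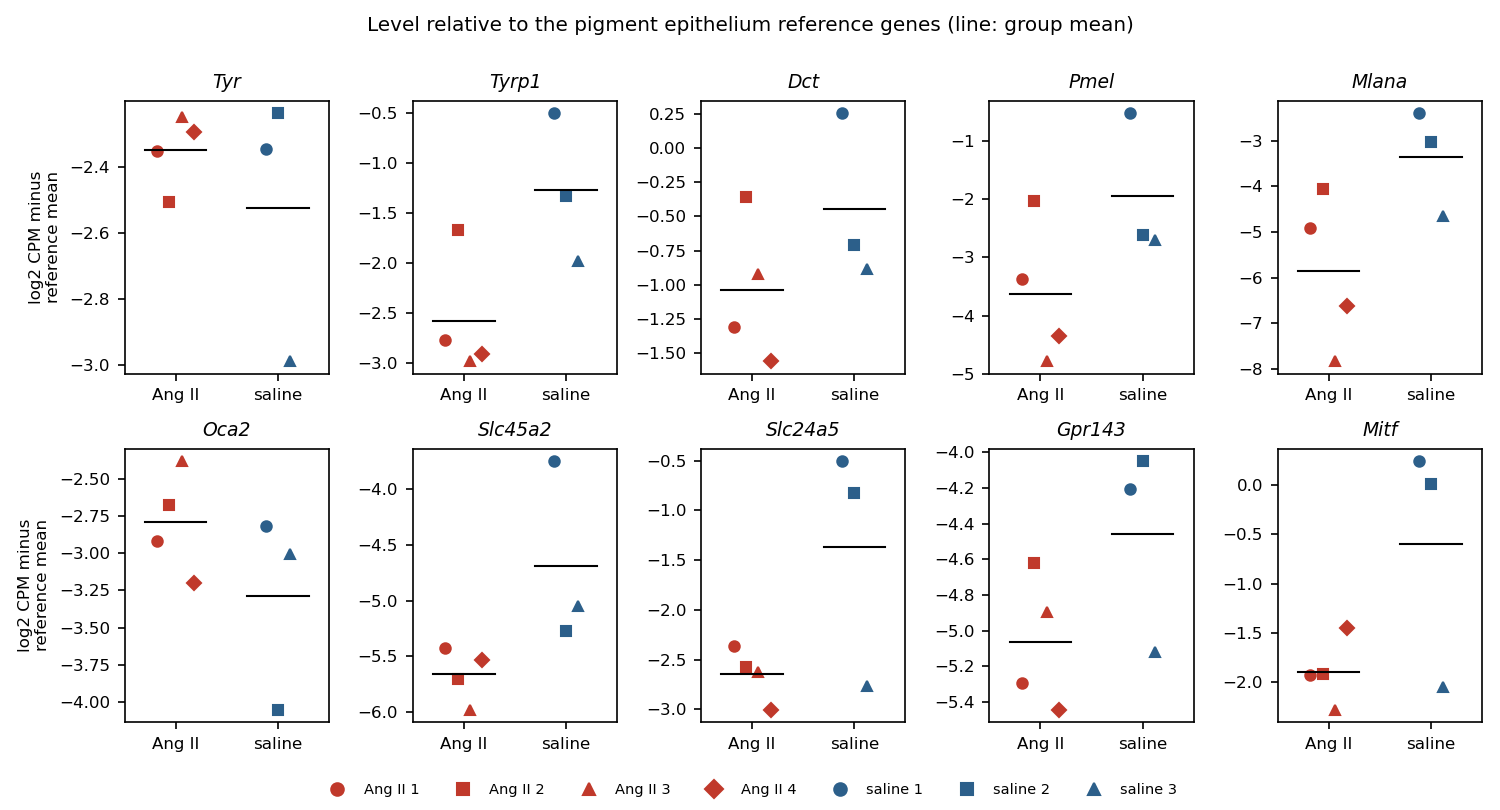
Log2 CPM of each gene minus the mean log2 CPM of the 11 reference genes in the same library (vertical axes, log2 units, differing in range), by group, with a line at each group's mean. Tyr stays between -2.99 and -2.24 in all 7 libraries, whereas saline replicates 1 and 2 lie well above the other 5 libraries for Mitf and Slc24a5.

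The members followed different libraries within the Ang II group. Ang II replicate 3, which had the highest reference level, was the highest of all 7 libraries for Tyr, Oca2, Slc24a5 and Gpr143. Ang II replicate 2 was the highest for Tyrp1, Dct, Pmel and Mlana. Optc reached 17.6 CPM in that library, against 0.632 to 0.966 CPM in the other Ang II libraries, and Myoc, which encodes myocilin of the anterior eye, had 28 counts against 5 to 9 in the other 6 libraries. For Zic1, the third ciliary and iris marker, the level was 9.78 CPM there and 5.06 to 7.30 CPM in the other Ang II libraries. The summed level of these 3 markers was 29.1 CPM in Ang II replicate 2, 6.01 to 8.69 CPM in the other Ang II libraries and 8.55 to 11.0 CPM in saline. Without Ang II replicate 2 the log2 fold changes were 0.13 for Tyrp1, -0.55 for Pmel and -0.97 for Mlana. The summed level of 7 choroid and stroma markers, described below, was also highest in Ang II replicate 2. It was 28.4 CPM there, 16.6 to 20.0 CPM in the other Ang II libraries and 14.1 to 20.7 CPM in saline. The part of ciliary, iris, choroid or stromal tissue in these values was not tested.

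**Figure D4:**
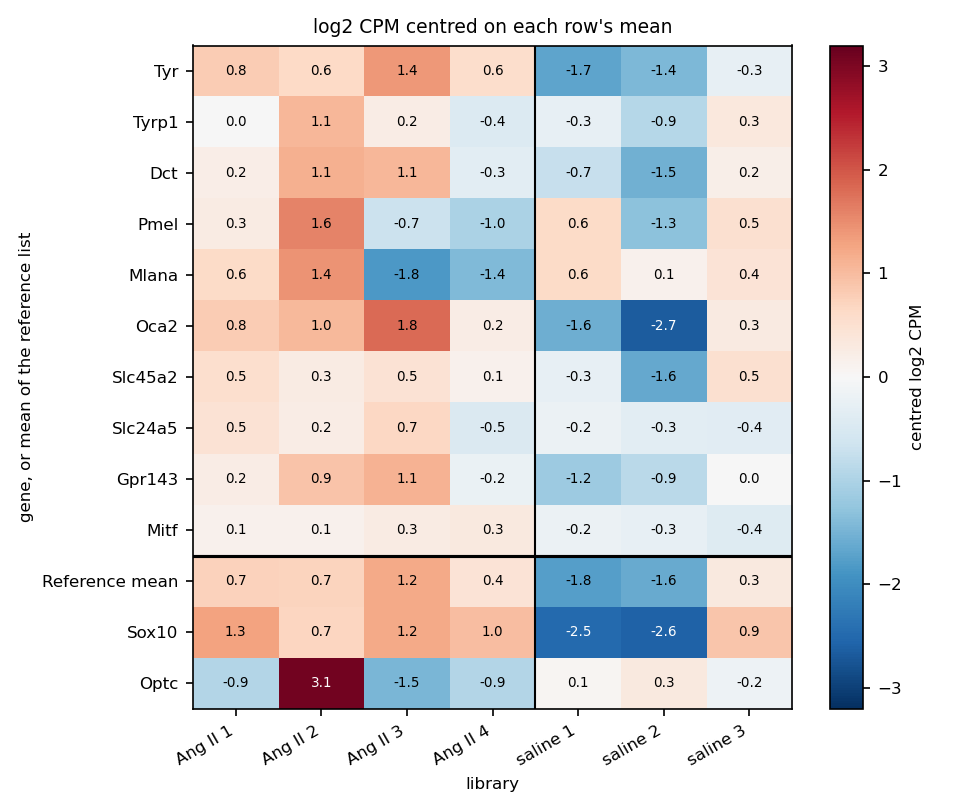
Log2 CPM of each gene, and of the mean of the 11 reference genes, centred on its mean over the 7 libraries (rows: genes; columns: libraries; colour and printed number: centred log2 CPM). Tyr and Oca2 share the low values of saline replicates 1 and 2 with the reference and Sox10, and Pmel and Mlana share the high value of Ang II replicate 2 with Optc.

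Marker lists of melanocytes and of the choroid were read as well. Whether other cells of the retina also express these markers was not tested. Of 5 melanocyte markers, Pax3 was at 0 counts in every library, and the receptor genes Kit, Mc1r and Ednrb had log2 fold changes of 0.16 ± 0.18, 0.13 ± 0.44 and -0.33 ± 0.28. Sox10, a transcription factor gene of neural crest derivatives, had 102, 61, 86 and 77 counts in Ang II and 5, 4 and 71 counts in saline. It was low in saline replicates 1 and 2 alone, as the reference list was, and its log2 fold change was 1.55 ± 0.89 (edgeR adjusted p = 0.982). Of the 5, Sox10 alone was called by limma-voom with quality weights (0.732% of all tested genes on the higher side), and DESeq2 called 0 (0.182%). Sox10 reached the filter on low counts in 4 Ang II libraries and 1 saline library, so its call gives no support of its own. The summed level of the 5 markers was 17.7 to 27.6 CPM in Ang II and 18.0 to 22.0 CPM in saline, so the groups overlapped. Kit and Ednrb made up most of this sum. Their mean levels were 7.95 and 6.12 CPM in Ang II and 7.15 and 7.74 CPM in saline, against 4.90 and 1.64 CPM for Sox10. The 7 choroid and stroma markers summed to 16.6 to 28.4 CPM in Ang II, with replicate 2 the highest, and 14.1 to 20.7 CPM in saline. The stromal proteoglycan gene Ogn had the smallest p among them, with a log2 fold change of 1.05 ± 0.41 (edgeR adjusted p = 0.982) and 96 counts in Ang II replicate 2.

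**Figure D5:**
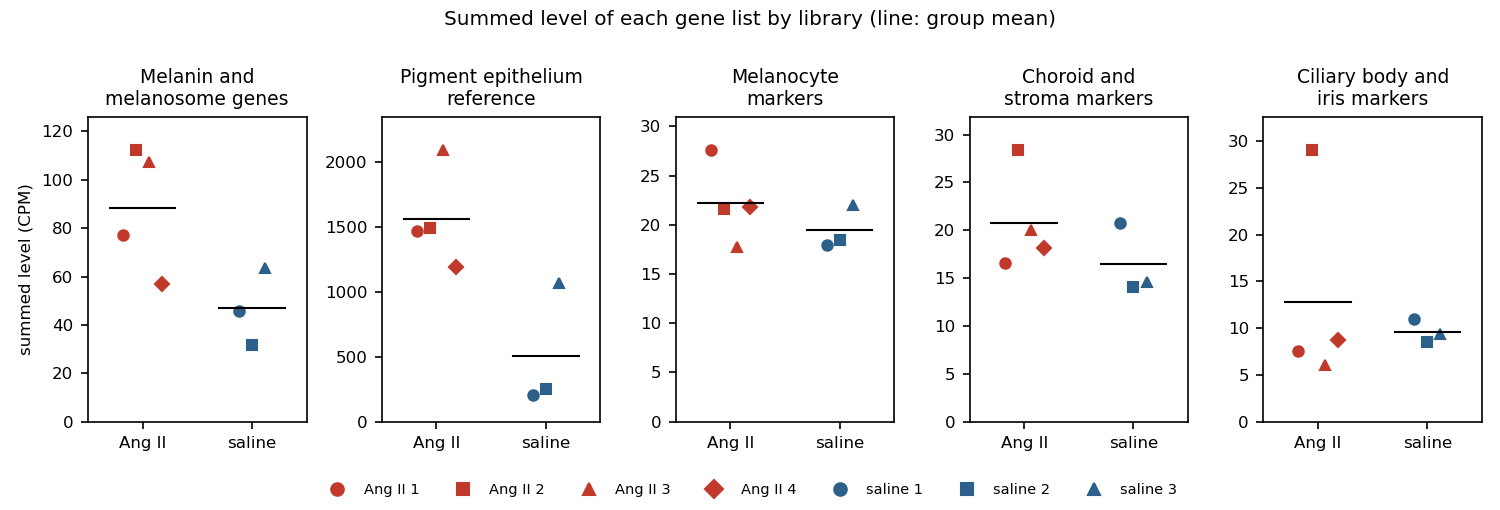
Summed level in CPM (vertical axes, linear, from 0) of the 10 melanin and melanosome genes and of 4 marker lists in each library, with a line at each group's mean. The reference list is at 1190 CPM or more in every Ang II library, while saline replicates 1 to 3 have 204, 250 and 1065 CPM. The ciliary and iris list stands out in Ang II replicate 2, and the choroid and stroma list is also highest there.

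Genes that build and move melanosomes, most of which serve other lysosome-related organelles too, had no common direction. Of 24 trafficking genes 0 passed edgeR, 11 had a log2 fold change above 0 and 13 below, and the median was -0.018 against -0.0048 over all tested genes. Rab27a, the GTPase gene that links melanosomes to myosin motors, had 380, 383, 364 and 327 counts in Ang II and 192, 186 and 282 counts in saline. Its groups did not overlap (3.18% of all tested genes on the higher side), and its log2 fold change was 0.64 ± 0.15 (edgeR adjusted p = 0.565). It was the 1 gene of this list with an unadjusted p under 0.05 (2.90% on the higher side). It was also the 1 called by DESeq2 (0.182%) and by limma-voom with quality weights (0.732%). Myo5a, the motor gene, was at 0.16 ± 0.09, the biogenesis complex gene Hps1 at -0.32 ± 0.18 and the melanoregulin gene Mreg at -0.17 ± 0.10, all with an edgeR adjusted p of 0.982. The groups did not overlap for Hps1 either, by level and on the lower side (2.73% of all tested genes). For separation and unadjusted p, 1 gene of 24 in a direction is near the share of all tested genes. The small GTPase genes Rab38 and Rab32, which deliver tyrosinase family enzymes to the melanosome, were at -0.16 ± 0.40 and -0.22 ± 0.37.

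Of 7 tested genes with other roles in melanosomes or their signalling, 0 passed edgeR, 0 had an unadjusted p under 0.05, 4 lay above 0 and 3 below, and the median was 0.13. The glycoprotein gene Gpnmb had 265, 449, 321 and 199 counts in Ang II and 201, 129 and 310 counts in saline, a log2 fold change of 0.47 ± 0.33. As for Pmel, Ang II replicate 2 was the highest and saline replicate 2 the lowest by count. The copper transporter gene Atp7a, which supplies tyrosinase, was at 0.18 ± 0.16, the cystine transporter gene Slc7a11 at 0.27 ± 0.26 and Mfsd12 at -0.16 ± 0.11 (edgeR adjusted p = 0.982 for each). Of 11 tested regulators and signals of pigment cells, 0 passed edgeR, 0 had an unadjusted p under 0.05, 7 lay above 0 and 4 below, and the median was 0.024. Otx2, Pax6 and Sox9, which other retinal cells express as well, were at 0.063 ± 0.09, 0.019 ± 0.10 and 0.044 ± 0.11. Tfec, a relative of Mitf, had at most 4 counts in any library and was not tested.

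The genes whose profile over the 7 libraries was most like the mean profile of the 10 members were found by the root mean square distance between log2 CPM profiles, each centred on its own mean. Among 13294 genes the nearest were Perp (0.134 log2 units), a desmosome gene, Bdh2 (0.153), a dehydrogenase gene, Cpeb1os1 (0.168), the monocarboxylate transporter family gene Slc16a9 (0.191) and the mitochondrial folate enzyme gene Mthfd2 (0.204). The bicarbonate transporter gene Slc4a5 (0.221), the growth factor gene Tgfb1 (0.222) and the glypican gene Gpc3 (0.229) followed. Cpeb1os1 is named as an opposite-strand transcript. The strand setting of the counts is not given, so reads of the other strand may be counted with it. Since these 8 were chosen for their likeness to the members, their direction between the groups follows from the choice and is not a result. The members themselves lay from 0.250 (Tyrp1) to 1.18 (Mlana) log2 units from their own mean profile.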

How the data were processed

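Counts per gene were read from the table the authors deposited, with 1 column for each of 7 retina libraries (4 Ang II, 3 saline). The columns hold whole-number counts, which were assumed not to be normalized. The submitters' processing notes name CASAVA, featureCounts 1.5.0-p3 and HISAT2 2.0.5, with mm10 as the build. Counting rules, strand setting and annotation release are not given in the sources used here, and the labels' protocols describe no step that marks the strand. The gene length in the deposited table was used for CPM per kilobase, and the authors did not state how it was measured. Columns were matched by sample description, with 0 left unmatched.

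Genes were kept by filterByExpr (about 10 counts in at least 3 libraries), scaled by TMM and tested with edgeR 4.0.16 (robust quasi-likelihood, two-sided) in R 4.3.3 on all genes at once, with the group as the sole term and Benjamini-Hochberg adjustment. Each SE was derived from the F statistic and the log2 fold change. Alternatives were other scalings, no filter, DESeq2 1.42.0, limma-voom (limma 3.58.1), each library left out and a replicate block. Simulated counts were tested for the same comparison, Ang II against saline (16783 genes, 200 changed): 72% of genes changed by a log2 fold of 1 and 99% of those changed by 2 were called, and 8 of 179 calls were false. The changed genes had a mean of at least 1 CPM, and each gene was given the typical spread of genes at its level. No library was shifted as saline replicate 3 was, so these shares do not apply to the members. The 10 members, the gene lists and the tests were chosen with earlier results of these data known. All 10 members were named. From each other list up to 4 genes of smallest p were named, with all marker genes of the pigment epithelium, melanocytes and ciliary body, and the 8 genes of nearest profile. Rab38, Rab32, Otx2, Pax6, Sox9, Tfec and the genes that share exon bases with members were named after their values were seen. Asip was not analysed here, and 1 further marker of the choroid list is not reported here, which leaves the 7 that were used.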

Additional observations from a re-analysis of the deposited data

Results flagged for a closer look

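Of 28 genes whose 4 Ang II libraries were checked, 4 had 1 library far from the other 3 by Dixon's ratio. Chance gives about 1 in 20 for a single gene with normally spread levels. Genes of a marker list moved together across libraries, so this rate does not apply to the count of 4. None of the 10 melanin and melanosome genes was among the 4. Optc (17.6 CPM) and Myoc (1.71 CPM), markers of the ciliary body and anterior eye, stood apart in Ang II replicate 2, where the next highest Ang II libraries had 0.966 and 0.422 CPM. Ermn (20.5 CPM) and Slc16a8 (67.1 CPM), of the pigment epithelium reference list, stood apart in Ang II replicate 3, against 12.2 and 46.1 CPM in the next highest. Groups of 3, such as saline, were not checked.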

How the results depend on the processing

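With all 7 libraries and edgeR, 0 genes and 0 members passed. The count was 0 as well with the other scalings, without robust estimation and by limma-voom without weights. It was 98 genes and 1 member (Tyr) with no filter on low counts, 35 and 1 (Tyr) with DESeq2, and 142 and 2 (Tyr and Oca2) by limma-voom with quality weights. When each library was left out, the log2 fold change of Pmel ran from -0.55 to 0.56 and of Mlana from -0.97 to 0.22, the number of genes ran from 0 to 117 and of members from 0 to 2, and the 117 and 2 came without saline replicate 3. The cause was not tested.

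The log2 fold changes of the members kept their sign in all alternatives except for Pmel, at -0.55 without Ang II replicate 2 and -0.15 without saline replicate 2, and Mlana, at 0.22 without Ang II replicate 3 and 0.19 without Ang II replicate 4 (the same 6 libraries as the unblocked comparison of replicates 1 to 3). With the replicate number as a block in those 6 libraries, edgeR called 57 genes and 2 members (Tyr and Oca2), against 0 and 0 without the block. The labels do not say whether the numbers pair the libraries. The deviations of same-numbered libraries correlated across genes at -0.088, 0.0078 and 0.032, and those of other pairs at -0.096 to 0.10. Deviations from means of 3 libraries cannot decide whether the numbers pair them. Relative to the reference list, 0 members passed with the median of the list, a prior count of 0.5 or Ttr left out. With 1 library left out this permutation test was not run, since it could not reach the threshold. Low counts limit Slc45a2, Mlana and Gpr143, which had at most 48 counts in any library.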

Other observations

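Among the 45 pairs of members, Dct and Gpr143 had the most alike profiles over the 7 libraries, with a root mean square distance of 0.334 log2 units between centred log2 CPM profiles. Slc24a5 and Mitf followed with 0.359 and Tyrp1 and Dct with 0.446. Mlana and Oca2 were the least alike, at 2.04 log2 units, and Mlana and Tyr the next, at 1.82. Mlana is scarce in Ang II replicates 3 and 4, with 3 and 5 counts, so its distances rest on few reads.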
